A study of Homo sapiens with 9 samples.

Results

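Long intergenic non-coding RNA (lincRNA) genes were followed in H1299 lung cancer cells after knockdown of FOXN3. The genes were those whose Ensembl identifier maps to a symbol made of LINC and digits only, whose FPKM (fragments per kilobase of exon, scaled to the depth of the library) averaged 0.5 or more over the 9 samples. They numbered 177 of the 1011 LINC genes among 34789 genes in the deposited table. The other 834 LINC genes had a mean below 0.5 FPKM, and 41 of those reached 0.5 FPKM as a mean of at least 1 group. The members were chosen by this measured level alone, so their levels are given as a description. Because that level was averaged over the treated samples too, some genes could enter through the group in which they were high. Of the 177, 139 had a mean of at least 0.5 FPKM in every group, and 15 reached it only in siControl.

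The symbol LINC with a number marks a gene for a long transcript without a recognised open reading frame whose function had not given it a name. Such RNAs are made by RNA polymerase II, are mostly spliced and polyadenylated, are usually less abundant and more specific to a cell type than messenger RNAs, and are in part removed in the nucleus by the RNA exosome. Many start head to head with a coding gene, from the same open promoter region, and others lie alone in long intergenic stretches. FOXN3 encodes a forkhead protein that represses transcription and is known to bind the forkhead sequence GTAAACA and the unlike sequence GACGC.

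H1299 is an established, p53-null cell line with epithelial-like growth, taken from a non-small cell lung cancer. Cells that the labels call wild type received a control siRNA (siControl), and cells labelled as FOXN3 knockdown received siFOXN3-1 or siFOXN3-2, each at 50 nM with the lipid reagent RNAiMAX. Each group had 3 samples, and no time after transfection is given in the sources used here. The treatment labels of the siFOXN3-2 samples name another RNAiMAX of that type, so the siRNA and the reagent cannot be told apart in that group. The treatment labels of replicates 2 and 3 of siFOXN3-2 name siFOXN4 and siFOXN5, whereas their titles name siFOXN3-2. FOXN3 was low in both, at 0.958 and 1.06 FPKM, against 0.858 FPKM in replicate 1 and 4.85 to 5.25 FPKM in siControl. Where both are left out below, 1 sample of siFOXN3-2 remains, and a call can be lost for that reason alone. Nothing in the labels says that replicates were separate cultures. The p-values therefore set differences against a spread among these samples that may be technical only, and may not hold for new cultures. Both FOXN3 siRNAs were compared with the same 3 siControl samples, so their comparisons are not independent of each other.

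FOXN3 itself (chr14:89124871-89619149, GRCh38) had 4.85, 5.25 and 5.00 FPKM in siControl, 1.28, 1.24 and 1.16 after siFOXN3-1 and 0.858, 0.958 and 1.06 after siFOXN3-2, and no treated sample overlapped siControl. Its fitted log2 fold change was -1.95 (adjusted p = 5.56e-07) with siFOXN3-1 and -2.28 (adjusted p = 2.61e-07) with siFOXN3-2. An exact two-sided permutation test gave p = 0.1 for either siRNA, the smallest that 3 samples against 3 can give. Depth was 17.0 to 19.6 M (mega) fragments per sample, with 18.7 to 19.6 M in siControl, 17.5 to 19.1 M with siFOXN3-1 and 17.0 to 18.5 M with siFOXN3-2. Over the 15283 genes that passed the same mean of 0.5 FPKM, the median log2 fold change was -0.22 with siFOXN3-1 and -0.14 with siFOXN3-2, and scaling samples by median ratios moved these medians to 0.00 and -0.01. The epithelial keratins KRT8 and KRT18 and the mesenchymal filament VIM were abundant, while the keratin KRT19, EPCAM and CDH1 lay below 0.5 FPKM in every group. Of the lung epithelium markers, NKX2-1 had means of 0.510, 0.413 and 0.615 FPKM in siControl, siFOXN3-1 and siFOXN3-2, and SFTPB at most 0.0381 FPKM. Summed FPKM of 4 immune markers reached at most 1.22 and of 4 endothelial markers at most 0.537 in any sample. Summed FPKM of 5 fibroblast markers was 0.8998 to 1.08 in siControl, 0.541 to 0.707 with siFOXN3-1 and 2.26 to 3.61 with siFOXN3-2. Most of it came from COL1A1, with means of 0.884, 0.490 and 1.62 FPKM, and COL1A2, with 0.0155, 0.0194 and 0.916 FPKM, in that order. DCN, LUM and PDGFRA had means of at most 0.0696 FPKM in any group. The part of these markers in the results was not tested. In RNA from bulk cultures, fewer cells that make a transcript and less of it per cell cannot be told apart.

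Most of the expressed LINC genes were low and a few were abundant. The median over the 177 members of their mean level was 1.47 FPKM, against 6.38 FPKM for the 11695 protein-coding genes past the same threshold, and the range was 0.505 to 116.7 FPKM. A mean of at least 1 FPKM was reached by 126 members, at least 10 FPKM by 11, and at least 50 FPKM by 2. Exon length had a median of 1830 bases against 5085 for those coding genes. In GENCODE 29, 141 members are annotated as lincRNA and 36 carry another class, among them 13 processed transcripts, 11 antisense genes and 6 transcribed unprocessed pseudogenes. Despite the symbol, 14 members overlap a protein-coding gene and 25 share over 10% of their exon length with another gene on either strand. The library kit did not mark strand, so reads of those 25 cannot be told apart from reads of the overlapping gene. The members just above the threshold were LINC00887, LINC01176 and LINC02505, with means of 0.185, 0.917 and 0.443 FPKM, 0.595, 0.399 and 0.525 FPKM and 0.484, 0.423 and 0.606 FPKM in siControl, siFOXN3-1 and siFOXN3-2 in turn. Just below it were LINC02600 with 0.843, 0.303 and 0.342 FPKM, LINC02057 with 0.653, 0.391 and 0.426 FPKM and LINC00592 with 0.332, 0.686 and 0.450 FPKM.

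The median level of the LINC genes was lower after either FOXN3 siRNA, while their summed FPKM, which a few abundant genes carry, was higher. The median level over members was 1.89 to 2.08 FPKM in siControl, 1.15 to 1.25 after siFOXN3-1 and 1.23 to 1.37 after siFOXN3-2. Both siRNA groups lay below every siControl sample. In contrast, the members' summed FPKM was 614 ± 6.56 in siControl, 749.9 ± 8.23 with siFOXN3-1 and 802 ± 25.6 with siFOXN3-2 (SD, n = 3 each). The 10 members with the highest mean level made up 29.9 ± 0.636% of that sum in siControl, 59.7 ± 0.555% with siFOXN3-1 and 60.3 ± 0.721% with siFOXN3-2. That mean includes the 6 treated samples, so genes that rose were drawn into the 10 and part of the larger share is built in. Ranked by the siControl mean alone, a ranking added after the values were seen, the 10 highest members made up 31.8 ± 0.565% of the sum in siControl, 54.6 ± 0.66% with siFOXN3-1 and 53.7 ± 0.993% with siFOXN3-2. Of those 10, 8 were the same genes, 6 rose and 3 fell with siFOXN3-1, and 7 rose and 3 fell with siFOXN3-2. The 3 that fell were LINC00839, LINC00963 and LINC00665. The other 167 members together had 430.6 ± 8.43 FPKM in siControl, 302 ± 1.92 after siFOXN3-1 and 318 ± 4.46 after siFOXN3-2. Reads summed over all members, not scaled to exon length or depth, were 30502 to 32658 in siControl. They were 27391 to 30782 with siFOXN3-1 and 29124 to 30491 with siFOXN3-2. The higher sum was thus seen in FPKM, where a read of a short gene weighs more, and not in these reads. The number of LINC genes with any signal, counted over all 1011, was 601 to 640 in siControl, 517 to 543 with siFOXN3-1 and 523 to 535 with siFOXN3-2. Depth was also higher in siControl, except that siFOXN3-1 replicate 1 was deeper than siControl replicate 1, and the part of depth in this count was not tested.

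**Figure D1:**
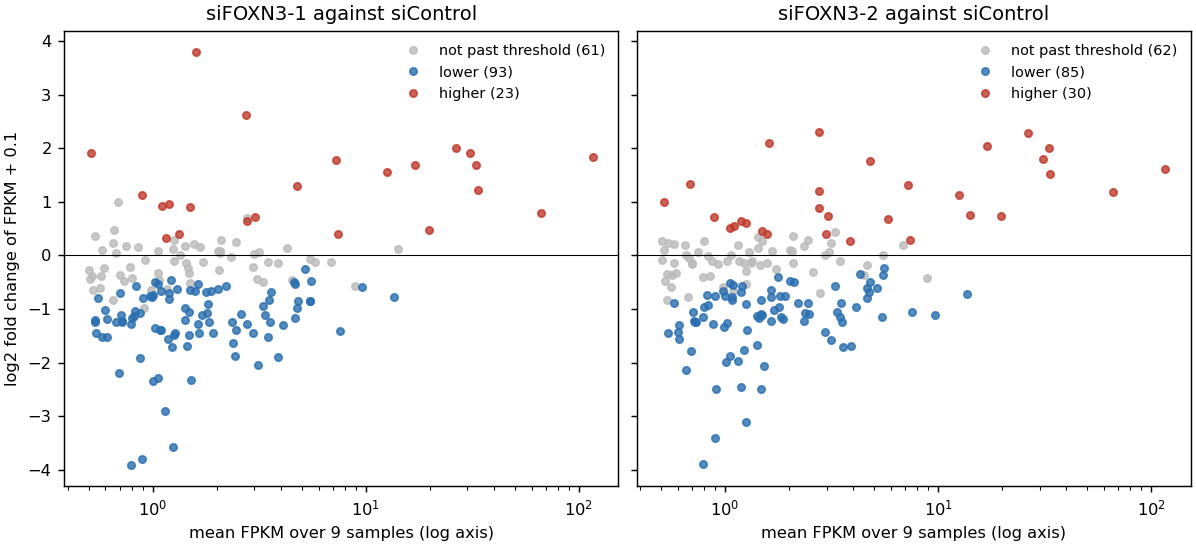
Log2 fold change of FPKM + 0.1 against siControl (vertical axis) for the 177 expressed LINC genes, by mean FPKM over the 9 samples (horizontal log axis), for siFOXN3-1 (left) and siFOXN3-2 (right). Each point is a gene, coloured by the limma call, with 23 higher and 93 lower on the left and 30 higher and 85 lower on the right. All points above 15 FPKM are red, and the horizontal axis includes the treated samples, so a fall also moves a point to the left.

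With siFOXN3-1, 23 of the 177 members were higher than in siControl (13.0%) and 93 were lower (52.5%) at a limma adjusted p under 0.05, against 17.6% higher and 42.9% lower among all 15283 genes tested. With siFOXN3-2, 30 were higher (16.9%) and 85 lower (48.0%), against 21.6% and 37.1% of all genes tested. The median log2 fold change over members was -0.58 and -0.47. A log2 fold change of -1 or below was fitted for 57 members (32.2%) with siFOXN3-1 and 48 (27.1%) with siFOXN3-2, against 12.2% and 10.1% of all genes. Antisense genes (symbols ending in AS and a number, 375 tested) counted 55 higher and 172 lower with siFOXN3-1 (14.7% and 45.9%). With siFOXN3-2 they counted 53 and 154 (14.1% and 41.1%). Of the protein-coding genes, 17.9% rose and 47.1% fell with siFOXN3-1, and 22.9% and 40.7% with siFOXN3-2. A log2 fold change of -1 or below was fitted for 21.9% and 18.4% of antisense genes, and for 9.67% and 7.73% of protein-coding genes. These shares depend on scaling. Median-ratio scaling gave 33 higher and 74 lower members with siFOXN3-1 and 31 and 74 with siFOXN3-2, and quantile normalization gave 38 and 64, and 40 and 63. Lower members outnumbered higher ones under each of these scalings. Over all genes, median-ratio scaling gave 4517 higher and 4314 lower with siFOXN3-1 and 4433 and 4301 with siFOXN3-2, whereas quantile normalization gave 4033 and 4628, and 4127 and 4540.

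Calls differed along the range of levels. Of the 59 members with the highest means (2.35 FPKM and above), 15 rose (25.4%) and 28 fell (47.5%) with siFOXN3-1, and among all 9576 genes in that range 20.9% rose and 45.1% fell. In the middle 59 members (1.07 to 2.34 FPKM), 6 rose (10.2%) and 33 fell (55.9%), against 11.4% and 47.3% of the 2553 genes of that range. The 59 lowest members counted 2 higher (3.39%) and 32 lower (54.2%), against 9.60% and 34.3% of 2759 genes. With siFOXN3-2, the 59 highest counted 20 higher and 26 lower (33.9% and 44.1%), against 26.8% and 37.9% of all genes in that range. The middle 59 counted 6 and 32 (10.2% and 54.2%), against 12.8% and 42.9%. The lowest 59 counted 4 and 27 (6.78% and 45.8%), against 10.1% and 31.2%. Among protein-coding genes of the highest, middle and lowest ranges, 46.6%, 55.9% and 47.3% fell with siFOXN3-1, and 39.0%, 50.4% and 45.0% with siFOXN3-2. Antisense genes of these ranges had 56.4%, 46.1% and 40.7%, and 51.1%, 44.1% and 34.5%. In each range the members' share of falls was nearer to that of coding genes than to that of all genes. Across the 177 members, which are not independent replicates, log2 fold change and log2 mean level had a Spearman rho of 0.21 and a Pearson r of 0.36 with siFOXN3-1, and 0.23 and 0.40 with siFOXN3-2. The mean on that axis includes the treated samples, so a rise by itself moves a gene to a higher range and a fall to a lower one.

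Among the 10 members with the highest mean over the 9 samples, 9 had a higher mean after either siRNA and LINC00839 was lower. LINC02575 was the highest LINC gene (ENSG00000228709, chr21:44485577-44490288, a gene of 2 exons), with 44.1, 48.7 and 44.6 FPKM in siControl, 166, 169 and 159 after siFOXN3-1 and 154, 134 and 131 after siFOXN3-2. All siFOXN3-1 samples lay above all siFOXN3-2 samples, and those above all controls. The log2 fold changes were 1.85 (SE 0.0686, adjusted p = 6.74e-08) and 1.61 (SE 0.0686, adjusted p = 2.08e-07), and siFOXN3-2 differed from siFOXN3-1 by -0.24 (adjusted p = 0.0263). The second in level, LINC02972 (ENSG00000249790, chr12:8788257-8795789), had 40.7, 37.5 and 40.6 FPKM in siControl, 61.3, 71.4 and 73.3 after siFOXN3-1 and 98.4, 88.6 and 83.9 after siFOXN3-2. Here the order was reversed, with siFOXN3-2 highest in every sample. Its log2 fold changes were 0.79 (adjusted p = 3.33e-05) and 1.19 (adjusted p = 3.33e-06).

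The genes LINC01608 (ENSG00000253877, chr8:110937690-111027433) and LINC01419 (ENSG00000253898, chr8:83403758-83408900) lie far from each other on the long arm of the same chromosome. LINC01608 had 16.2, 16.6 and 16.0 FPKM in siControl, 40.6, 37.9 and 34.9 after siFOXN3-1 and 49.9, 45.3 and 44.8 after siFOXN3-2. LINC01419, a transcript reported in liver cancer, had 12.6, 12.1 and 11.3 FPKM in siControl, 41.3, 37.8 and 37.1 after siFOXN3-1 and 44.9, 51.8 and 48.5 after siFOXN3-2. For both, the 3 groups did not overlap and siFOXN3-2 was the highest. The log2 fold changes of LINC01608 were 1.21 (adjusted p = 7.59e-07) and 1.52 (adjusted p = 2.36e-07), while LINC01419 had values of 1.68 (adjusted p = 1.53e-07) and 2.00 (adjusted p = 7.21e-08). The nearest coding gene to LINC01608 by start site, the potassium channel subunit gene KCNV1, starts 1051590 bases away, and RALYL, nearest to LINC01419, had a mean of at most 0.182 FPKM in any group.

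LINC00973 (ENSG00000240476, chr3:98981058-98983096), for which effects on immune checkpoint molecules have been reported, had 11.7, 10.9 and 11.1 FPKM in siControl, 42.6, 44.2 and 40.7 after siFOXN3-1 and 38.5, 42.2 and 37.3 after siFOXN3-2. The treated groups overlapped each other and were clear of siControl, with log2 fold changes of 1.91 (SE 0.0615, adjusted p = 3.03e-08) and 1.80 (SE 0.0615, adjusted p = 6.25e-08). Its nearest coding gene, DCBLD2, a membrane receptor gene that starts 79369 bases away in the opposite direction, had means of 53.5 ± 1.10, 23.8 ± 0.463 and 22.5 ± 0.190 FPKM in siControl, siFOXN3-1 and siFOXN3-2 in turn and fell with both siRNAs (log2 fold changes -1.16 and -1.25, adjusted p = 6.8e-08 and 6.48e-08). LINC02432 (ENSG00000248810, chr4:141319450-141332618) rose less, with group means of 14.6 ± 1.41, 20.5 ± 2.00 and 24.3 ± 2.80 FPKM (SD, n = 3), and log2 fold changes of 0.48 (adjusted p = 0.00325) and 0.73 (adjusted p = 0.000303). LINC02506 (ENSG00000251129, chr4:31997397-32155406) had 11.1, 11.3 and 11.3 FPKM in siControl, 12.5, 13.2 and 11.1 after siFOXN3-1 and 20.7, 18.9 and 17.6 after siFOXN3-2, so that siFOXN3-1 overlapped siControl and siFOXN3-2 did not. It did not pass the test with siFOXN3-1 (log2 fold change 0.12, adjusted p = 0.203) but rose with siFOXN3-2 (log2 fold change 0.75, adjusted p = 3.13e-05), and the direct difference between the siRNAs was 0.63 (adjusted p = 0.000464). Median-ratio scaling and quantile normalization made the siFOXN3-1 rise significant as well, at 0.35 and 0.25. LINC00839 (ENSG00000185904, chr10:42475543-42495336), a gene with reports in breast cancer and neuroblastoma, had means of 18.7 ± 0.473, 10.9 ± 0.453 and 11.3 ± 0.931 FPKM in the same order and fell with both siRNAs (log2 fold changes -0.78 and -0.72, adjusted p = 1.08e-05 and 1.9e-05).

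**Figure D2:**
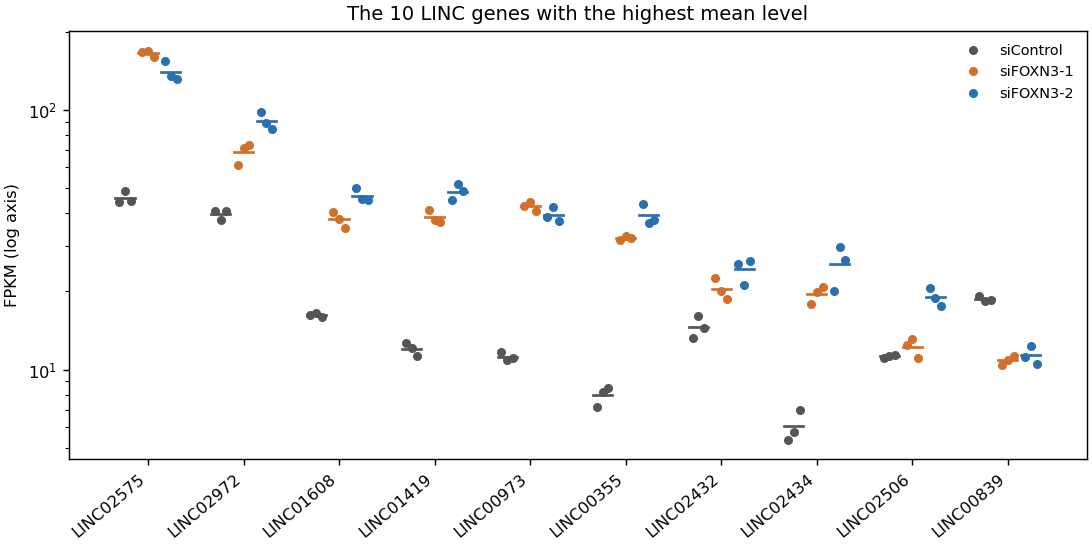
FPKM (vertical log axis) of the 10 LINC genes with the highest mean level, 1 point per sample and a bar at each group mean, for siControl (grey), siFOXN3-1 (orange) and siFOXN3-2 (blue). All treated points of LINC02575, LINC00973, LINC00355 and LINC02434 lie above every control point of the same gene, and LINC00839 is the only gene of the 10 with its control points on top.

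The rises reached across levels. LINC00355 (ENSG00000227674, chr13:63851197-64076044), a multi-exon gene reported in bladder cancer, had 7.15, 8.21 and 8.51 FPKM in siControl, 31.6, 32.7 and 32.1 after siFOXN3-1 and 43.5, 36.5 and 37.7 after siFOXN3-2. The groups did not overlap, and the means of the treated samples were 4.04 and 4.93 times that of siControl, with log2 fold changes of 2.00 (SE 0.0824, adjusted p = 1.34e-07) and 2.29 (SE 0.0824, adjusted p = 8.13e-08). LINC02434 (ENSG00000248370, chr4:188160065-188161139) had 5.38, 5.77 and 7.02 FPKM in siControl, 17.9, 19.9 and 20.7 after siFOXN3-1 and 20.1, 29.7 and 26.4 after siFOXN3-2, with log2 fold changes of 1.68 (SE 0.143, adjusted p = 9.78e-06) and 2.04 (SE 0.143, adjusted p = 3.52e-06). LINC00513 (ENSG00000233559, chr7:130853720-130928649) had 2.75, 3.26 and 3.22 FPKM in siControl, 9.26, 11.7 and 11.4 after siFOXN3-1 and 7.20, 7.51 and 8.83 after siFOXN3-2. It was higher with siFOXN3-1 than with siFOXN3-2, without overlap, and its log2 fold changes were 1.77 (adjusted p = 1.96e-06) and 1.32 (adjusted p = 1.17e-05). LINC03061 (ENSG00000275216, chr13:109269634-109278512) lay near the threshold in siControl and had 0.522, 0.669 and 0.620 FPKM in siControl, 5.34, 3.64 and 3.76 after siFOXN3-1 and 3.86, 2.78 and 3.53 after siFOXN3-2, which gave 2.61 (adjusted p = 2.22e-06) and 2.30 (adjusted p = 5.04e-06).

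LINC00659 (ENSG00000228705, chr20:62774128-62775412), annotated as an antisense gene, was a trace in siControl and higher in every treated sample. It passed the rule only through its treated samples. It had 0.198, 0.193 and 0.0946 FPKM in siControl, 3.29, 3.25 and 3.91 after siFOXN3-1 and 2.07, 0.903 and 0.512 after siFOXN3-2, which corresponded to 2, 2 and 1 reads in siControl, 34, 32 and 37 reads with siFOXN3-1 and 19, 9 and 5 reads with siFOXN3-2. With so few reads in the controls the size of the rise is uncertain, and the fitted values of 3.80 (adjusted p = 3.35e-05) and 2.10 (adjusted p = 0.00144) depend on the pseudocount. The 3 siFOXN3-2 samples were spread widely, and the group was lower than siFOXN3-1 without overlap (log2 fold change -1.70, adjusted p = 0.011). With siFOXN3-2 samples 2 and 3 left out, whose treatment labels name other siRNAs, that difference was -0.72 and not called (adjusted p = 0.139). LINC00887 (ENSG00000214145, chr3:194296465-194312803), 1 of the 3 members just above the threshold, passed the rule through its treated samples, with 0.142, 0.314 and 0.0984 FPKM in siControl, 0.932, 0.951 and 0.866 after siFOXN3-1 and 0.354, 0.483 and 0.493 after siFOXN3-2. Its log2 fold changes were 1.91 (adjusted p = 0.000861) and 0.99 (adjusted p = 0.0283), and the siFOXN3-2 call was lost without siControl replicate 1 (0.91) or 3 (0.77), siFOXN3-1 replicate 2 (0.99), or siFOXN3-2 replicate 2 (0.94) or 3 (0.93). LINC00115 (ENSG00000225880, chr1:826206-827522), a gene of 1 exon inside LINC01128 on the opposite strand, had 2.11, 2.14 and 1.82 FPKM in siControl, 3.89, 5.50 and 6.11 after siFOXN3-1 and 7.54, 6.83 and 7.02 after siFOXN3-2. Its log2 fold changes were 1.29 (adjusted p = 5.84e-05) and 1.77 (adjusted p = 9.29e-06), whereas LINC01128 around it had 0.17 (adjusted p = 0.344) and 0.13 (adjusted p = 0.452) and did not pass the test with either siRNA.

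The promoter windows of 3 of these rising genes are shown, from 250 bases before to 50 after the RefSeq start (GRCh38.p14, 5′ to 3′ on the strand of the gene), because FOXN3 binds DNA. Letters in capitals mark GTAAACA or GACGC on either strand, the second strand reading TGTTTAC or GCGTC. That of LINC00355 (chr13:64075962-64076261, minus strand) holds GACGC once, that of LINC00887 (chr3:194312755-194313054, minus strand) holds GTAAACA once on the opposite strand, and that of LINC02434 (chr4:188159803-188160102, plus strand) holds neither. The windows of LINC00513, LINC00659 and LINC00973, which also rose, hold neither and are not shown, so those shown are not a fair sample. The LINC02434 window is a tandem repeat, with 85.2% of its bases identical to the base 50 positions on, the highest among the 36 windows of named members, where LINC00659 came next at 52.5%. Reads from repeats of this kind can be placed at more than 1 copy, and the part of this in the LINC02434 values was not tested. Of the 300 bases, 250 lie before the start. Whether the exons of LINC02434 hold such repeats was not examined.
LINC00355: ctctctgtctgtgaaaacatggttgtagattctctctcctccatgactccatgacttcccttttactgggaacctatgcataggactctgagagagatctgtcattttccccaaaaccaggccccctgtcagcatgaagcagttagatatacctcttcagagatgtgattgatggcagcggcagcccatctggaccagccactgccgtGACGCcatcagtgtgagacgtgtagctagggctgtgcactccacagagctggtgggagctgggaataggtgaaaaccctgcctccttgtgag
LINC00887: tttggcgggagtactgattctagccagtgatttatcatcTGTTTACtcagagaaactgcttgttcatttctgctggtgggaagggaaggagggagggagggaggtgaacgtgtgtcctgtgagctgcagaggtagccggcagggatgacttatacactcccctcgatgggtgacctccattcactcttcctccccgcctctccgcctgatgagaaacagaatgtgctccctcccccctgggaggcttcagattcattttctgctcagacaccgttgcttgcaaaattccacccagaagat
LINC02434: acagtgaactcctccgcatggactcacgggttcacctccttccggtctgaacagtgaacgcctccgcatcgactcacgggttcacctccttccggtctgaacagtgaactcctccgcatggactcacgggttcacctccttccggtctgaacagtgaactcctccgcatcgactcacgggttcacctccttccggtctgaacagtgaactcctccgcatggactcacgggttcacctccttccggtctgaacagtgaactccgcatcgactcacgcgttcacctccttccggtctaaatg

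Some members were almost lost after either siRNA. LINC00638 (ENSG00000258701, chr14:104821201-104823718), a gene of 1 exon, had 2.00, 2.21 and 2.54 FPKM in siControl, 0.0623, 0.131 and 0 after siFOXN3-1 and 0.0700, 0.0861 and 0.0220 after siFOXN3-2. These values stood for 94, 107 and 125 reads in siControl, 3, 6 and 0 reads with siFOXN3-1 and 3, 4 and 1 reads with siFOXN3-2, so all 6 treated samples were at or near 0. The fitted log2 fold changes were -3.91 (SE 0.443, adjusted p = 5.54e-05) and -3.90 (SE 0.443, adjusted p = 6.17e-05), and a pseudocount of 0.1 FPKM limits how large a fall they can show. Its nearest coding gene, ZBTB42, a zinc finger gene that starts 20605 bases upstream on the same strand, fell too, with means of 6.37 ± 0.195, 1.37 ± 0.131 and 1.63 ± 0.449 FPKM in siControl, siFOXN3-1 and siFOXN3-2 (SD, n = 3).

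LINC03068 and LINC02870 form a head-to-head pair on chromosome 10. LINC03068 (ENSG00000234311, chr10:132433733-132441484) had 2.27, 2.93 and 2.02 FPKM in siControl, 0, 0.108 and 0.169 after siFOXN3-1 and 0.174, 0.375 and 0 after siFOXN3-2. Its partner LINC02870 (ENSG00000180066, chr10:132444327-132449408) had 2.81, 3.04 and 3.96 FPKM in siControl, 0.231, 0.108 and 0.224 after siFOXN3-1 and 0.375, 0.319 and 0.190 after siFOXN3-2. In both genes every treated sample lay far below every control, and the 2 siRNA groups overlapped. LINC03068 went from 43, 57 and 40 reads in siControl to at most 7 reads in any treated sample, and LINC02870 from 107, 119 and 158 reads to at most 13. The log2 fold changes were -3.80 (adjusted p = 0.000412) and -3.40 (adjusted p = 0.000894) for LINC03068, and -3.57 (adjusted p = 7.05e-06) and -3.11 (adjusted p = 1.74e-05) for LINC02870. PWWP2B, a chromatin protein gene and the nearest coding gene to both, fell less, with means of 8.80 ± 0.477, 5.06 ± 0.304 and 5.36 ± 0.363 FPKM (log2 fold changes -0.79 and -0.71, adjusted p = 1.97e-05 and 4.17e-05).

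The RefSeq promoter windows of LINC02870 (chr10:132444939-132445238, plus strand) and LINC03068 (chr10:132444933-132445232, minus strand) share 294 bases, and the RefSeq starts lie 207 bases apart, so the first window stands for both. GENCODE 29 puts the starts of these genes 862 and 3498 bases away from the RefSeq starts. The window is shown because both genes fell, with that of LINC01096 (chr4:13547775-13548074, minus strand), which fell as well and holds GACGC at 2 places on the opposite strand, in capitals. Neither set of letters is in the shared window. Among the genes named for the largest falls, the windows of LINC01521, LINC01629, LINC02593 and LINC02739 hold neither as well and are not shown.
LINC02870: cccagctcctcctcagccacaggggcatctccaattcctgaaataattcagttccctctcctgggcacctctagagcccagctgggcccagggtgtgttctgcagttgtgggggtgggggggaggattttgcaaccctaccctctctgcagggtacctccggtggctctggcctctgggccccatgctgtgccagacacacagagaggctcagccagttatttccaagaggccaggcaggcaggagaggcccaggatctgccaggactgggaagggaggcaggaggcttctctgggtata
LINC01096: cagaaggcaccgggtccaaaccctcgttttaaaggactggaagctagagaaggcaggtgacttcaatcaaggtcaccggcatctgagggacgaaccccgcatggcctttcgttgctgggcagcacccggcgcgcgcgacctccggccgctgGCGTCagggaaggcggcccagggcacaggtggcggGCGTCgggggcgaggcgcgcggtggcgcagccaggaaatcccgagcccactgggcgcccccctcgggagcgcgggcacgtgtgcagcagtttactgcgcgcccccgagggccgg

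Across the 111 members with a promoter in the RefSeq table, GTAAACA was found in 2 (1.80%) and GACGC in 37 (33.3%) on either strand, against 3.41% and 35.1% of 27305 promoters of all genes. The letters GACGC were in 2 of 10 promoters of members higher with siFOXN3-1, 23 of 66 of those lower and 12 of 35 of the rest, and with siFOXN3-2 in 5 of 17, 19 of 59 and 13 of 35 in turn. Over all 1578 LINC genes of the RefSeq table, expressed or not, GTAAACA was in 4.75% and GACGC in 16.8%. Median GC content was 60.7% in members, 47.7% in those 1578 and 58.3% in all promoters. For 68 of the 111 the RefSeq start lay within 100 bases of the GENCODE start.

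Several falls were shared by a neighbouring coding gene and others were not. LINC01096 (ENSG00000246095, chr4:13546075-13547801) had 3.39, 2.80 and 3.56 FPKM in siControl, 0.621, 0.651 and 0.452 after siFOXN3-1 and 1.02, 0.729 and 0.438 after siFOXN3-2, without overlap between treated samples and controls (log2 fold changes -2.32 and -2.07, adjusted p = 4.81e-05 and 0.000108). NKX3-2, a homeobox repressor gene that starts 2751 bases away on the same strand, fell to a lesser degree, with means of 6.57 ± 0.110, 3.67 ± 0.557 and 4.33 ± 0.215 FPKM. LINC02593 (ENSG00000223764, chr1:916865-921016) had 1.87, 1.97 and 2.71 FPKM in siControl, 0.277, 0.383 and 0.385 after siFOXN3-1 and 0.609, 0.313 and 0.533 after siFOXN3-2 (log2 fold changes -2.34 and -1.98, adjusted p = 4.59e-05 and 0.000143). SAMD11, which starts 2912 bases away in the opposite direction, fell with it, with means of 5.36 ± 0.378, 1.57 ± 0.0894 and 1.88 ± 0.320 FPKM. The same SAMD11 is also the nearest coding gene to LINC00115, which rose.

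LINC01521 (ENSG00000213888, chr22:31346777-31348719) starts 545 bases from PATZ1, a zinc finger gene, in the opposite direction. Its values were 2.42, 2.71 and 2.60 FPKM in siControl, 0.323, 0.226 and 0.235 after siFOXN3-1 and 0.726, 0.642 and 0.427 after siFOXN3-2, in 3 groups that did not overlap (log2 fold changes -2.90 and -1.96, SE 0.215 and 0.215, adjusted p = 4.37e-06 and 4.96e-05). PATZ1 fell only by a small amount, to 75.5% and 77.8% of the siControl level. LINC00680 (ENSG00000215190, chr6:57946074-57961501), annotated as a transcribed pseudogene and so open to reads from its parent genes, had 2.88, 1.79 and 2.08 FPKM in siControl, 0.370, 0.406 and 0.346 after siFOXN3-1 and 0.495, 0.402 and 0.727 after siFOXN3-2 (log2 fold changes -2.29 and -1.88, adjusted p = 3.73e-05 and 0.000139). LINC02739 (ENSG00000255008, chr11:59561146-59566074) had log2 fold changes of -2.20 (adjusted p = 0.00598) and -1.78 (adjusted p = 0.0178), from 26 reads or fewer per sample, while OSBP, an oxysterol-binding protein gene 50070 bases away, rose with both siRNAs (log2 fold changes 0.20 and 0.63, adjusted p = 0.0294 and 4.74e-05).

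**Figure D3:**
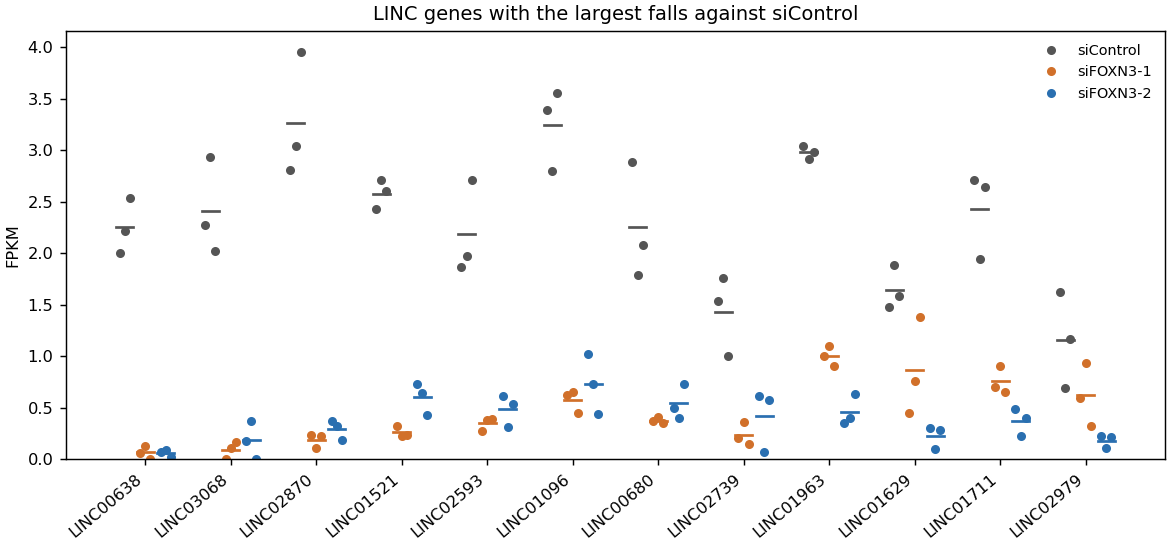
FPKM (vertical axis, from 0) of the 12 LINC genes named for the largest falls against siControl with either siRNA, 1 point per sample and a bar at each group mean, for siControl (grey), siFOXN3-1 (orange) and siFOXN3-2 (blue). LINC00638, LINC03068 and LINC02870 are at or below 0.375 FPKM in every treated sample, and in LINC02979 a siFOXN3-1 sample lies above the lowest control.

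A set of 8 members start within 1000 bases of a coding gene that runs in the opposite direction, the arrangement of a shared divergent promoter. With siFOXN3-1, 7 of the 8 fell and none rose, and with siFOXN3-2, 5 fell and none rose. Among the other 169 members 50.9% and 47.3% fell, and among all genes tested 42.9% and 37.1%, so the siFOXN3-2 count in particular is not far from these shares. LINC00205 (ENSG00000223768, chr21:45288050-45297806), which starts 152 bases from POFUT2, the gene of a protein O-fucosyltransferase, had 7.33, 7.42 and 7.66 FPKM in siControl, 1.97, 1.99 and 1.82 after siFOXN3-1 and 2.44, 2.23 and 2.08 after siFOXN3-2. It dropped to 25.8% and 30.1% of its siControl mean (log2 fold changes -1.90 and -1.69, SE 0.0792 and 0.0792, adjusted p = 1.41e-07 and 3.62e-07), while POFUT2 had log2 fold changes of 0.18 and 0.16 that did not pass the test (adjusted p = 0.106 and 0.138). LINC00941, a gene reported in gastric and lung cancer, starts 216 bases from CAPRIN2, named here after its values were seen. LINC00941 fell modestly with means of 6.27 ± 0.207, 5.22 ± 0.305 and 4.09 ± 0.135 FPKM, and CAPRIN2 rose by 1.64 and 0.87 on the log2 scale. All exon bases of LINC00941 also belong to another annotated gene on the same strand, so its level is uncertain, and its siFOXN3-1 call was lost under median-ratio scaling and under quantile normalization, at -0.03 in both. LINC01560 (ENSG00000196741, chrX:47483571-47484823) starts 625 bases from ZNF41 and had 3.67, 3.91 and 2.77 FPKM in siControl, 2.00, 1.18 and 1.55 after siFOXN3-1 and 2.35, 3.50 and 2.47 after siFOXN3-2. It fell with siFOXN3-1 (log2 fold change -1.10, adjusted p = 0.00155) and did not pass the test with siFOXN3-2 (log2 fold change -0.31, adjusted p = 0.232), and ZNF41 fell with both (log2 fold changes -1.17 and -1.06, adjusted p = 0.000145 and 0.000286).

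Over all members whose nearest coding gene was tested and started within 50000 bases, the log2 fold changes of the LINC gene and the coding gene had a Pearson r of 0.38 and a Spearman rho of 0.22 with siFOXN3-1, and 0.29 and 0.12 with siFOXN3-2 (69 pairs). Beyond 50000 bases the values were -0.23 and -0.22, and -0.11 and -0.09 (57 pairs). Some coding genes count for more than 1 member, the fold changes come from the same libraries, and these correlations are a description only.

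**Figure D4:**
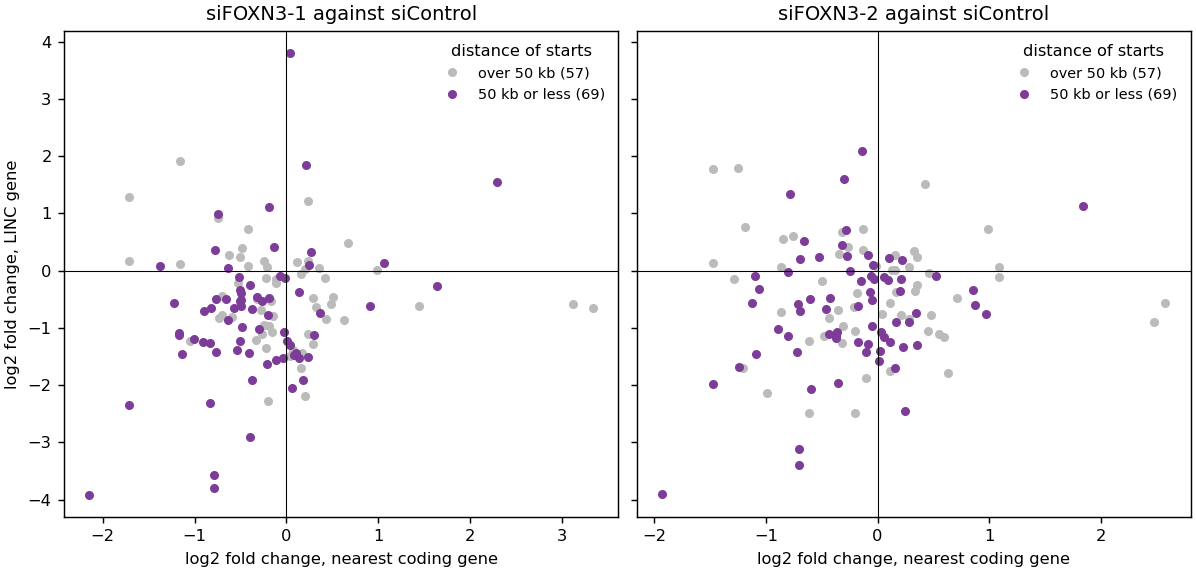
Log2 fold change of FPKM + 0.1 against siControl of each LINC gene (vertical axis) and of its nearest protein-coding gene (horizontal axis), for siFOXN3-1 (left) and siFOXN3-2 (right). Each point is a LINC gene, purple where the starts lie within 50 kb (69 genes) and grey beyond that (57 genes). The lowest purple point is LINC00638 with ZBTB42, at -3.91 and -2.14 with siFOXN3-1.

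A list of 49 LINC genes with published reports in cancer cells was set beside these results, and 38 of them are in the table and 27 were tested. The list was chosen with earlier results of these data known, so its counts are a description only. With siFOXN3-1, 19 fell and 3 rose (median log2 fold change -0.80), and with siFOXN3-2, 18 fell and 5 rose (median -0.72). Over all genes tested 42.9% and 37.1% fell and 17.6% and 21.6% rose, and over all LINC members 52.5% and 48.0% fell. Those that fell include several with reports of growth-promoting effects. LINC00665 (ENSG00000232677, chr19:36313067-36331718) had 13.0, 12.0 and 11.8 FPKM in siControl, 4.73, 4.55 and 4.37 after siFOXN3-1 and 5.82, 5.39 and 6.27 after siFOXN3-2 (log2 fold changes -1.41 and -1.06, SE 0.0722 and 0.0722, adjusted p = 5.08e-07 and 2.88e-06). The 3 groups did not overlap. LINC00963 (ENSG00000204054, chr9:129483451-129513686), among the longest members by exon length, fell in steps, with 13.5, 13.2 and 14.1 FPKM in siControl, 9.24, 9.10 and 8.77 after siFOXN3-1 and 6.29, 6.37 and 6.04 after siFOXN3-2. Its log2 fold changes were -0.58 (adjusted p = 1.61e-05) and -1.11 (adjusted p = 4.56e-07), and siFOXN3-2 differed from siFOXN3-1 by -0.53 (adjusted p = 0.000209).

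LINC00857 (ENSG00000237523, chr10:80207710-80219657), reported in lung adenocarcinoma, starts 2138 bases from ANXA11 in the opposite direction and had 5.42, 5.11 and 4.87 FPKM in siControl, 1.66, 1.84 and 1.97 after siFOXN3-1 and 2.17, 2.05 and 1.43 after siFOXN3-2 (log2 fold changes -1.44 and -1.42, adjusted p = 2.52e-05 and 3.02e-05). LINC01234 (ENSG00000249550, chr12:113679459-113773683), also reported in lung cancer, had means of 4.53 ± 0.253, 2.30 ± 0.256 and 3.02 ± 0.172 FPKM in siControl, siFOXN3-1 and siFOXN3-2 in turn. Falls were also called with both siRNAs for LINC00339, LINC00342, LINC01089, LINC01535, LINC00265, LINC00467, LINC01116, LINC00174, LINC00649, LINC01355 and LINC01503, with log2 fold changes between -1.44 (LINC00265 with siFOXN3-1) and -0.53 (LINC00467 with siFOXN3-1). Among them LINC01089, described as an inhibitor of metastasis that EGF lowers, had means of 2.98 ± 0.176, 1.20 ± 0.0888 and 1.32 ± 0.407 FPKM, and 41.7% of its exon length lies in another gene on the same strand and 48.7% on the opposite strand. LINC00324 fell with siFOXN3-1 (log2 fold change -1.23, adjusted p = 0.0171) and did not pass the test with siFOXN3-2 (log2 fold change -0.35, adjusted p = 0.442). Its call was lost without siControl replicate 1 (-1.18) or siFOXN3-1 replicate 2 (-1.07), and under quantile normalization (-1.09). LINC01355 lost its siFOXN3-1 call without siControl replicate 3 (-0.71), its siFOXN3-2 call without siControl replicate 1 (-0.73) or 3 (-0.66) or siFOXN3-2 replicate 2 (-0.67), and both under quantile normalization (-0.43 and -0.45). The siFOXN3-1 call of LINC00467 was lost under both scalings, at -0.31 and -0.17, and the siFOXN3-2 calls of LINC00265 (-0.56) and LINC01355 (-0.84) with siFOXN3-2 samples 2 and 3 left out.

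The listed genes that rose with both siRNAs were LINC00973, LINC00887 and LINC00707. LINC00707 (ENSG00000238266, chr10:6779549-6879450), reported to act with the RNA-binding protein HuR, had 0.593, 0.679 and 0.915 FPKM in siControl, 1.64, 1.14 and 1.62 after siFOXN3-1 and 1.01, 1.01 and 1.30 after siFOXN3-2, above the controls in every treated sample (log2 fold changes 0.92 and 0.55, adjusted p = 0.00328 and 0.0402). The siFOXN3-2 call of LINC00707 was lost without siControl replicate 1 (0.43) or 2 (0.52), siFOXN3-1 replicate 3 (0.55), or siFOXN3-2 replicate 1 (0.60), 2 (0.61) or 3 (0.44). LINC00472, reported as lowered in aggressive breast cancer, had means of 0.994 ± 0.148, 1.23 ± 0.173 and 1.55 ± 0.135 FPKM. It did not pass the test with siFOXN3-1 (log2 fold change 0.28, adjusted p = 0.137) and rose with siFOXN3-2 (log2 fold change 0.60, adjusted p = 0.00729), while both scalings made the siFOXN3-1 rise significant, at 0.49 and 0.65. LINC00662 rose with siFOXN3-2 by 0.28 (adjusted p = 0.0381), and its value of -0.14 (adjusted p = 0.249) with siFOXN3-1 turned to 0.09 under median-ratio scaling. The siFOXN3-2 call of LINC00662 was lost without siControl replicate 2 (0.23) or 3 (0.27), without siFOXN3-2 replicate 2 (0.21) or 3 (0.27), and, at an unchanged value, with no filter and with a replicate block. With siFOXN3-2 samples 2 and 3 left out, LINC00887 (0.75), LINC00707 (0.45), LINC00472 (0.48) and LINC00662 (0.11) were not called. LINC00460, LINC00294 and LINC01128 did not pass the test with either siRNA.

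Between the siRNAs, 22 members were higher with siFOXN3-2 than with siFOXN3-1 (12.4%) and 18 were lower (10.2%), against 21.1% and 9.07% of all genes tested. Median-ratio scaling gave 15 higher and 22 lower members, and the counts over all genes moved likewise, from 3225 higher and 1386 lower to 1944 and 1984. The differences were smaller than those against siControl, with none reaching a log2 value of 1 upwards and 5 reaching -1 downwards. LINC02454 (ENSG00000256268, chr12:65602869-65612997) fell in steps, with 6.64, 4.54 and 5.76 FPKM in siControl, 3.68, 3.49 and 3.13 after siFOXN3-1 and 1.97, 1.57 and 1.42 after siFOXN3-2, and siFOXN3-2 lay below siFOXN3-1 with a log2 difference of -1.02 (SE 0.153, adjusted p = 0.00136). HMGA2, a chromatin architectural gene that starts 221262 bases away and is its nearest coding gene, had means of 72.0 ± 2.03, 59.4 ± 3.60 and 31.2 ± 3.75 FPKM, with -0.93 (adjusted p = 0.000133) between the siRNAs. LINC01963 (ENSG00000260804, chr2:216217045-216220192) had 3.04, 2.91 and 2.99 FPKM in siControl, 0.997, 1.10 and 0.907 after siFOXN3-1 and 0.355, 0.396 and 0.633 after siFOXN3-2, also in 3 groups without overlap. Its log2 fold changes against siControl were -1.49 and -2.49, and the difference between the siRNAs had an adjusted p of 0.00365, while its nearest coding gene XRCC5, which encodes the DNA end-binding protein Ku80, changed by -0.24. LINC01711 and LINC01629 went the same way, at -0.89 (adjusted p = 0.0244) and -1.51 (adjusted p = 0.0178), and LINC02979 at -1.31 (adjusted p = 0.0398) with 16 reads or fewer per sample. The LINC02979 call was lost without siControl replicate 3 (-1.31), siFOXN3-1 replicate 1 (-1.28) or 2 (-0.99), or siFOXN3-2 replicate 1 (-1.43), 2 (-1.09) or 3 (-1.40). That of LINC01711 was lost without siFOXN3-1 replicate 2 (-0.77) or siFOXN3-2 replicate 2 (-0.64), and that of LINC01629 without siFOXN3-1 replicate 3 (-1.14). With siFOXN3-2 samples 2 and 3 left out, LINC02979 (-1.06), LINC01711 (-0.53) and LINC01629 (-1.13) were not called, nor were these 3 when only the compared groups were fitted (adjusted p = 0.0646, 0.0689 and 0.0514). With no filter and with voom, LINC02979 and LINC01711 were not called, and LINC02979 also lost its call with a replicate block and with a pseudocount of 0.5 or 1.

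Higher with siFOXN3-2 were LINC01885, LINC01521, LINC01556, LINC03011, LINC01560 and LINC00377. LINC01885 (ENSG00000237880, chr2:107385632-107542649) had 4.66, 4.53 and 3.10 FPKM in siControl, 0.945, 0.721 and 1.59 after siFOXN3-1 and 2.32, 1.96 and 2.18 after siFOXN3-2, so the fall against siControl was larger with siFOXN3-1, and the siRNAs differed by 0.99 (SE 0.249, adjusted p = 0.0154). LINC03011 (ENSG00000237310, chr7:66493706-66495474) had 6.44, 4.82 and 3.69 FPKM in siControl, 3.78, 5.18 and 4.55 after siFOXN3-1 and 8.16, 8.63 and 6.86 after siFOXN3-2. It did not pass the test with siFOXN3-1 (log2 fold change -0.12, adjusted p = 0.608) and rose with siFOXN3-2 (log2 fold change 0.68, adjusted p = 0.0117), with a difference of 0.80 (adjusted p = 0.0116). LINC00377 (ENSG00000229246, chr13:81043670-81044442) had means of 1.46 ± 0.210, 0.913 ± 0.107 and 1.53 ± 0.174 FPKM, with log2 fold changes of -0.62 (adjusted p = 0.00552) and 0.07 (adjusted p = 0.709). Its nearest coding gene SPRY2, an inhibitor of ERK signalling that starts 702719 bases away, rose with both siRNAs (log2 fold changes 1.44 and 1.09, adjusted p = 1.67e-08 and 1.04e-07). LINC01556 differed by 0.93 (adjusted p = 0.0173) and LINC01560 by 0.78 (adjusted p = 0.0212). Without siFOXN3-1 replicate 2 the calls of LINC01885 (0.76) and LINC01560 (0.60) were lost. The LINC01560 call was also lost without siFOXN3-1 replicate 3 (0.79) or siFOXN3-2 replicate 2 (0.61), and the LINC01556 call without siFOXN3-1 replicate 1 (0.79) or 3 (0.85). With siFOXN3-2 samples 2 and 3 left out, LINC01885 (1.09), LINC01556 (0.97), LINC03011 (0.86), LINC01560 (0.57) and LINC00377 (0.60) were not called. LINC01521 was not called when only the compared groups were fitted (adjusted p = 0.0658), nor LINC00377 with voom on recovered reads (adjusted p = 0.107). With no filter on level, LINC01556 and LINC01560 were not called (adjusted p = 0.052 and 0.0608).

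These counts between the siRNAs were the least stable. Without siFOXN3-1 replicate 2 there were 14 higher and 11 lower members, and without siFOXN3-2 replicate 2 there were 26 higher and 11 lower. With no filter on level, 13 were higher and 11 lower. With siFOXN3-2 samples 2 and 3 left out, whose treatment labels name other siRNAs, the remaining sample, assumed to vary like the other groups, gave 8 higher and 8 lower members.

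**Figure D5:**
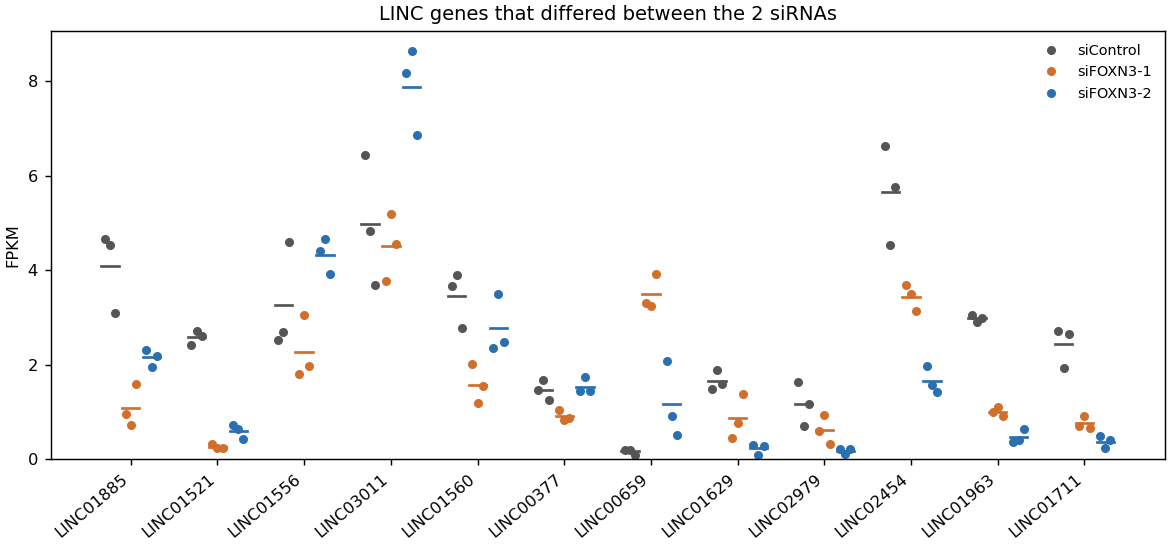
FPKM (vertical axis, from 0) of the 12 LINC genes with the largest called differences between siFOXN3-2 and siFOXN3-1, 1 point per sample and a bar at each group mean, for siControl (grey), siFOXN3-1 (orange) and siFOXN3-2 (blue). The first 6 genes are higher with siFOXN3-2 and the last 6 lower, and in all 12 the orange and blue points do not overlap.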

How the data were processed

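RNA of 9 H1299 samples was extracted with TRIzol, and polyadenylated RNA was made into libraries with the NEBNext Ultra kit, per the labels' protocols. The deposited values are FPKM per gene in 1 table, which the authors made with fastp 0.14.0, HISAT2 2.1.0, StringTie 1.3.3b and GRCh38, per the submitters' processing notes. The annotation release and the counting options were not given in the sources used here. Every value column was mapped to a labelled sample, and 0 other columns were left unused. Symbols were matched for 34435 of 34789 gene identifiers (99.0%), and 354 had none. Gene features came from GENCODE 29, and promoters from the RefSeq table of GRCh38.p14, which held 111 of the 177 members.

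The test covered 15283 genes whose mean reached 0.5 FPKM and left out 19506. A linear model over the 3 groups was fitted to log2(FPKM + 0.1) with limma 3.58.1 in R 4.3.3, with 6 residual and 3.43 prior degrees of freedom and a mean-variance trend. Tests were two-sided, p-values were adjusted by Benjamini and Hochberg's method over all genes tested, and the threshold was 0.05. A fold change on this scale understates the change of low genes, and the small pseudocount was used because 1 FPKM is near the level of most members. The script was tested on simulated data.

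Depth was recovered from whole-read steps of the FPKM values. With GENCODE exon lengths, 98.2% of values of 1 to 50 reads came out whole within 0.05 reads, as did all 9 values of 14824 tested genes (97.0%) and 167 members. The voom method of limma on those reads called 2680 genes higher and 6654 lower with siFOXN3-1, and 3263 and 5831 with siFOXN3-2. Replicates of a group differed by more than sampling noise, at an average per-gene chi-square between 3.61 and 11.4.

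The members and lists were chosen with earlier results of these data known. Named genes were FOXN3, the 10 members highest in level, the 8 largest called rises and 8 largest falls per siRNA, up to 6 called differences each way between the siRNAs, called genes of the list with reports in cancer cells, the 3 genes on each side of 0.5 FPKM, and nearest coding genes. No member was called in opposite directions by the siRNAs. Alternatives covered the pseudocount, the filter, scaling, the variance model, the samples fitted, a replicate block, each sample left out and voom. The rest was computed in Python 3.11.15 with numpy 2.4.6, pandas 2.3.3 and scipy 1.17.1, and drawn with matplotlib 3.10.9.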

Additional observations from a re-analysis of the deposited data

How the results depend on the processing

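With replicate number as a block, 20 members were higher and 89 lower with siFOXN3-1, 27 and 79 with siFOXN3-2, and 21 and 11 between the siRNAs. Samples with the same number had correlations of -0.0763 to 0.0027 in their deviations from group means. Such deviations cancel out within each group, so these values cannot show whether samples with the same number were prepared together. Quantile normalization gave 38 higher members with siFOXN3-1. With no filter, 13 members were higher and 11 lower with siFOXN3-2 than with siFOXN3-1. Leaving out each sample in turn gave 20 to 23 higher and 83 to 94 lower members with siFOXN3-1, 25 to 30 and 73 to 85 with siFOXN3-2, and 14 to 26 and 11 to 18 between the siRNAs. With siFOXN3-2 samples 2 and 3 left out together, an alternative added after seeing the data, 17 members were higher with siFOXN3-2, and 8 were higher and 8 lower between the siRNAs. On recovered reads, voom called 19 of 167 members higher and 92 lower with siFOXN3-1, 24 and 82 with siFOXN3-2, and 25 and 17 between the siRNAs.

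Over 102 results for named genes, 2019 of 2111 alternative values kept direction and call, 78 lost the call, 4 gained it and 10 changed sign, all 10 in results that were not called. The value of LINC00662 with siFOXN3-1 became 0.087 under median-ratio scaling and 0.18 under quantile normalization. LINC00324 with siFOXN3-2 ranged from -0.62 to 0.18 over the left-out samples, with 0.027 without siFOXN3-2 replicate 2 and 0.18 with both samples left out. LINC01176 with siFOXN3-2 became 0.025 and 0.11 under those scalings and ranged from -0.31 to 0.20 over the left-out samples, the highest without siControl replicate 2. LINC02505 with siFOXN3-1 ranged from -0.61 to 0.22, the highest without siFOXN3-1 replicate 2. With siFOXN3-2 it ranged from -0.00403 (without siFOXN3-2 replicate 3) to 0.50, and was -0.088 with both samples left out. The cause was not tested. Members near 0.5 FPKM rest on few reads at this depth.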

Other observations

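In all, 6 pairs of expressed LINC genes overlap or lie within 5000 bases of each other, all on opposite strands, and reads where they overlap cannot be assigned to a strand. Members of a pair did not always have like values. LINC00526 and LINC00667 on chromosome 18 overlap by 773 bases, and both fell, at -1.27 (adjusted p = 3.63e-05) and -1.23 (adjusted p = 4.83e-05) against -1.39 (adjusted p = 6.02e-06) and -1.10 (adjusted p = 2.78e-05) on the log2 scale. LINC03057 and LINC02086 on chromosome 17 overlap by 101 bases and fell as well, at -0.54 (adjusted p = 0.0102) and -0.61 (adjusted p = 0.00548) against -1.23 (adjusted p = 0.00107) and -1.24 (adjusted p = 0.0011). LINC00174 and LINC03011 on chromosome 7 lie 139 bases apart. LINC00174 had means of 1.77 ± 0.127, 0.629 ± 0.0703 and 0.679 ± 0.0597 FPKM in siControl, siFOXN3-1 and siFOXN3-2 (SD, n = 3) and fell with both siRNAs, whereas LINC03011 had 4.98 ± 1.38, 4.50 ± 0.702 and 7.89 ± 0.916 FPKM and rose with siFOXN3-2. LINC00662 and LINC02987 on chromosome 19 overlap by 478 bases, and LINC02987 did not pass the test with either siRNA (log2 fold changes -0.21 and 0.01, adjusted p = 0.0505 and 0.93).

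Factors that remove nuclear non-coding RNA, the exosome subunits and the helper proteins of the NEXT and PAXT complexes, were called in both directions. Of 18 tested, 3 rose and 6 fell with siFOXN3-1, and 9 rose and 5 fell with siFOXN3-2. Over all genes tested 17.6% rose and 42.9% fell with siFOXN3-1, and 21.6% and 37.1% with siFOXN3-2, so the siFOXN3-1 counts lie near the background. ZFC3H1, the scaffold of PAXT, had means of 9.81, 15.4 and 17.5 FPKM in siControl, siFOXN3-1 and siFOXN3-2 and rose with both (log2 fold changes 0.64 and 0.83, adjusted p = 0.000922 and 0.000204). The exonuclease DIS3 had 5.55, 7.74 and 8.42 FPKM and C1D, a cofactor of the nuclear exosome, 4.91, 6.77 and 10.7 FPKM, both higher with either siRNA. The core subunits EXOSC2 with 11.0, 7.06 and 7.02 FPKM and EXOSC6 with 8.92, 4.27 and 5.86 FPKM fell with both. So did EXOSC8 with 11.0, 7.97 and 8.94 FPKM and EXOSC10 with 16.4, 13.0 and 12.6 FPKM. The part of these factors in the LINC gene results was not tested.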
